A study of Mus musculus with 17 samples.

Results

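Kidneys of mice were compared 1, 3 and 5 days after warm ischemia reperfusion injury (IRI) with kidneys taken on the same days after a sham operation. These samples are 6 of the 17 in the series, 1 IRI and 1 sham sample for each of days 1, 3 and 5, and they were chosen by the arm and day in their labels. The other samples are IRI and sham kidneys of days 7, 10, 14, 21 and 30 and a naïve kidney sample. All mice were wild type, of the strain labelled C57/BL6 and aged 10 to 12 weeks. The sample labels call them female and the study's methods male. IRI mice had 30 minutes of warm ischemia, applied to one kidney according to the methods, sham mice were operated without it, and naïve mice were untreated. Whole kidney tissue was used, and the design gives each sample as a pool of 3 mice, so each arm had 1 pool per day and the 3 days serve as its replicates. The p-values rest on the spread within 3 periods of days, shared by all 8 arrays of IRI and sham, days 7 to 30 included. That spread holds any change with time within a period as well as error, and is not the spread of days 1, 3 and 5 alone.

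Every mature mouse microRNA (miR) of the deposited table was a member of the comparison, 569 in all, each printed as 6 spots. Each array took both pools of 1 day, with IRI RNA stained by the dye Cy3 and sham RNA by Cy5. The dyes were never swapped, so IRI and Cy3 cannot be told apart in the mean IRI/sham ratio. Between 168 and 276 miRs were above background in an early IRI sample and between 172 and 248 in an early sham sample, background being the median of 250 empty spots plus 3 median absolute deviations. That median was 231.9 to 390.2 in the early IRI samples (Cy3) and 35.3 to 37.7 in the early sham samples (Cy5), so detection in 1 arm alone does not measure a difference between the arms. A total of 199 miRs were above background in at least 3 of the 6 early samples and were tested, 152 of them were above background in all 6, and 272 were above background in none. Before normalization the median Cy3/Cy5 log2 ratio of the tested miRs was 1.01, 1.16 and 1.12 on days 1, 3 and 5, and loess normalization brought it to between -0.04 and 0.00. Levels are given below as normalized scanner intensities, which are comparable between samples for 1 miR but not between miRs. With 1 array per day, precision is set by how few arrays there are.

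miRs are RNAs of about the length of the sequences printed below that guide Argonaute proteins to messenger RNAs, mostly through pairing of the seed, bases 2 to 8 from the 5′ end, and lower the output of the mRNAs they pair with. Different miRs with 1 seed can pair with largely the same sites, and many miRs are cut from a shared transcript or lie inside the gene of a host mRNA. In the ischemic kidney, tubule cells are damaged and die, leukocytes enter, surviving tubule cells divide, and fibroblasts may be activated. miR-21, miR-155 and miR-146a are widely studied miRs of injury and inflammation, the miR-17-92 cluster is known from proliferating cells, and miR-192, miR-194, miR-30 and miR-200 family members are abundant in kidney epithelium.

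Between IRI and sham, 9 miRs differed over days 1 to 5 beyond the threshold, an adjusted p under 0.05 in limma with Benjamini-Hochberg adjustment over the 199 tested miRs. Their sequences, as deposited with the arrays, are printed here because they carry the main result, with the seed in capitals.
miR-21: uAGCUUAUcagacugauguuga
miR-155: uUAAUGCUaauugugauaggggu
miR-15b: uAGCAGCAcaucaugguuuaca
miR-199a-3p: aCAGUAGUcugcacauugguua
miR-25: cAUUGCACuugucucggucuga
miR-132: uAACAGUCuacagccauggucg
miR-20a: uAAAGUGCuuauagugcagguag
miR-763: cCAGCUGGgaagaaccaguggc
miR-188-5p: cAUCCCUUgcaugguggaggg
No seed is held by more than 1 of the 9. The first 7 were higher in IRI and the last 2 lower. Each of the 9 sequences was identical to a RefSeq mature miR, as were 462 of the 569 on the array, and positions below are those of RefSeq on GRCm38.p6.

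Of the 199 tested miRs, 4.52% passed, 3.52% higher and 1.01% lower in IRI, and 35 had an unadjusted p under 0.05. The 2 lower calls, miR-763 and miR-188-5p, entered the test through the sham arm and were above background in 1 of 3 IRI samples, and no lower call was made where all 6 samples had to be above background. The smallest adjusted p was 0.0392, so that every call lay close to the threshold. Without day 1 or without day 5 no miR passed in limma (31 and 18 at an unadjusted p under 0.05), while the mean log2 ratio of miR-21 was 2.29 and 1.93, that of miR-15b 1.44 and 1.52 and that of miR-132 1.11 and 1.13. Without day 3 there were 8 calls, 3 higher and 5 lower, of which the 3 higher were among the 9 (miR-21, miR-155 and miR-20a). The direction of the 7 higher miRs was the same under all 14 alternative settings. Settings that change only the filter, the fit or the days used could not turn it, since all 7 were above 0 on every day. It could turn only where the ratios were recomputed, by the authors' values, another background correction, normalization or spot average, or a floor. The mean ratio of miR-763 came to 0.00 and that of miR-188-5p to 0.01 under plain background subtraction, and both to 0.00 with a floor of 200. In 23 of the tested miRs, 11.6%, the 3 IRI levels all lay above the 3 sham levels, and in 18, 9.05%, all lay below. All 7 higher miRs and 1 of the 2 lower miRs, miR-763, were among these.

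**Figure D1:**
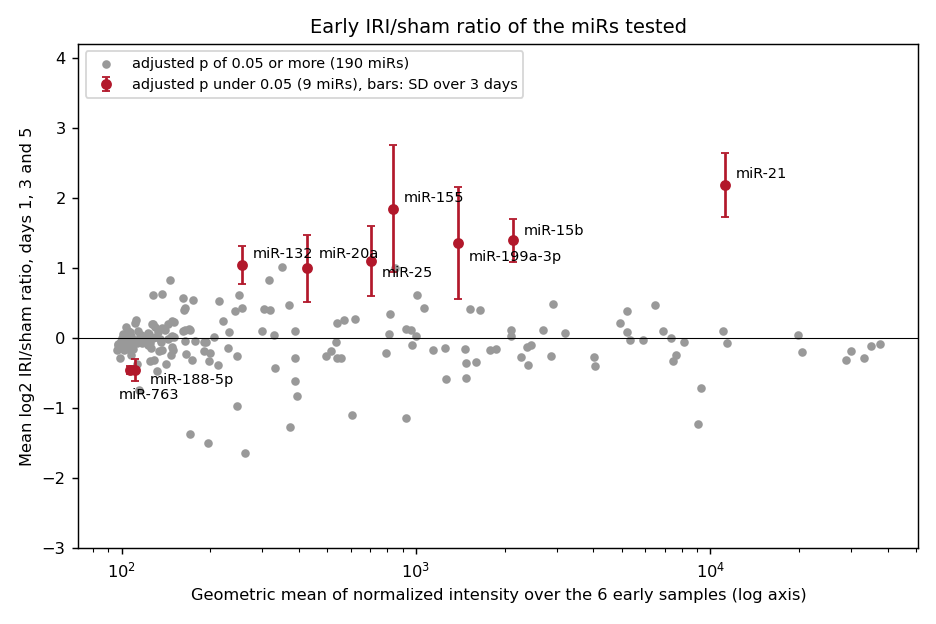
Mean log2 IRI/sham ratio of days 1, 3 and 5 (vertical axis) against the geometric mean of the normalized intensity over the 6 early samples (horizontal log axis) for the 199 tested miRs. The 9 miRs past the threshold are red with the SD over 3 days as bars; miR-21 stands highest at 2.19, while miR-763 and miR-188-5p lie at -0.46 among the dimmest miRs.

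miR-21, induced in many kinds of tissue injury, had the highest ratio of all tested miRs. Its normalized intensity on days 1, 3 and 5 was 17845, 27954 and 27264 in IRI and 4519, 7648 and 4164 in sham. The lowest IRI sample was above the highest sham sample, and both arms were highest on day 3. The log2 IRI/sham ratio was 1.98, 1.87 and 2.71 on the 3 days, with a mean of 2.19 ± 0.46 (SD, n = 3 days), a 4.55-fold difference (limma adjusted p = 0.0392). miR-21 lies at chr11:86584120-86584141 (minus strand), within the span of the protein-coding gene Vmp1. Under the alternatives its mean log2 ratio stayed between 1.64 and 2.35, and its adjusted p lay between 0.00428 and 0.176.

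miR-155, which is made by activated leukocytes and regulates immune responses, was second. Its normalized intensity was 1943, 1067 and 1892 in IRI and 629, 510.4 and 264 in sham on days 1, 3 and 5. IRI was lowest on day 3 and sham on day 5, and the arms did not overlap. The log2 ratio was 1.63, 1.06 and 2.84 by day, with a mean of 1.84 ± 0.91 (SD, n = 3), a 3.59-fold difference (limma adjusted p = 0.0397). It lies at chr16:84714143-84714165 (plus strand). No other miR on the array has its seed.

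Markers of leukocytes were read beside it. In pools of whole kidney, here and throughout, a change in the number of cells of a type and a change in the RNA per cell cannot be told apart. Of the 5 miRs in this list 3 were tested, and 1 of the 3, miR-155, passed, against 4.52% of all tested miRs. miR-142-3p and miR-142-5p, which mark blood cells generally, were above background in none of the 6 early samples. miR-223, a miR of neutrophils and monocytes, had log2 ratios of 0.33, 1.03 and 0.49 (adjusted p = 0.366) and was above background in all 3 IRI samples but only 1 sham sample. For miR-150, a miR of mature lymphocytes, the ratios were 0.42, 0.15 and -0.27 (adjusted p = 0.716). On days 1, 3 and 5 the normalized intensity of miR-223 was 130.1, 203 and 153 in IRI and 103, 99.1 and 108 in sham, and that of miR-150 279.9, 421 and 252 in IRI and 209, 381 and 304 in sham. The arms did not overlap in miR-223 and overlapped in miR-150. The intensity summed over the 5 probes, which includes miR-155 itself and so is no separate measure of leukocytes, was 1888 to 2531 in IRI and 855.8 to 1176 in sham. The part of leukocyte number in the miR-155 value was not tested.

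The miR-146 pair is induced by inflammatory signalling and dampens it, and completes the list of 4 injury and inflammation miRs, of which miR-21 and miR-155 passed, against 4.52% of all tested miRs. For miR-146a the normalized intensity was 537, 638 and 575 in IRI and 579, 529 and 415 in sham. The arms overlapped, and the log2 ratio was -0.11, 0.27 and 0.47 on days 1, 3 and 5 (adjusted p = 0.661). In miR-146b, which differs from it by 2 bases outside the seed, the intensity was 134, 172 and 215 in IRI and 108, 113 and 110.2 in sham. Its log2 ratio was 0.31, 0.61 and 0.97, and the mean of 0.63 did not pass (adjusted p = 0.187).
miR-146a: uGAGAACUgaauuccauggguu
miR-146b: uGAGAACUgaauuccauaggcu
The list's median log2 ratio was 1.24, against -0.04 over all tested miRs.

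**Figure D2:**
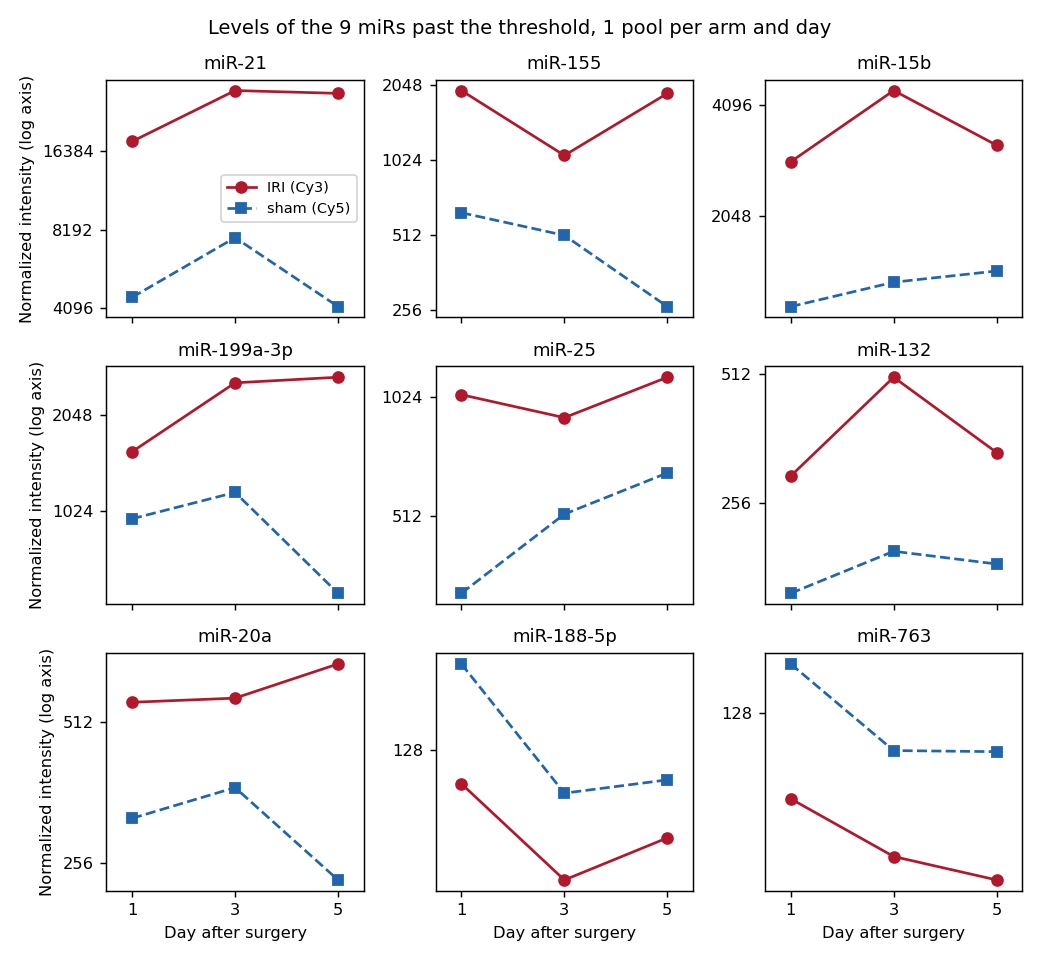
Normalized intensity (vertical log axis, a scale of its own in each panel) on days 1, 3 and 5 for the 9 miRs past the threshold, with 1 IRI pool (red circles) and 1 sham pool (blue squares) per day. In the 7 higher miRs every IRI point lies above every sham point, while in miR-188-5p the IRI point of day 1 lies above the sham point of day 3.

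miR-199a-3p is made in mesenchymal cells such as fibroblasts and pericytes. Its normalized intensity on days 1, 3 and 5 was 1575, 2591 and 2698 in IRI and 970.4, 1174 and 566 in sham. The arms did not overlap, and the gap between them was smallest on day 1 and largest on day 5. The log2 ratio was 0.70, 1.14 and 2.25, with a mean of 1.36 ± 0.80 (SD, n = 3), a 2.57-fold difference (limma adjusted p = 0.0495). The same mature sequence comes from 3 genes, at chr1:162217883-162217904 (plus strand) within the spans of Dnm3 and the long noncoding gene Dnm3os, at chr2:32318524-32318545 (plus strand) within Dnm1 and at chr9:21496498-21496519 (minus strand) within Dnm2, and the probe cannot separate them.

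The other members of this fibroblast list are miR-199a-5p, the opposite strand of the same hairpin, and miR-214, encoded beside it in the Dnm3os span. In miR-199a-5p the log2 ratio was 0.10, 0.30 and 0.19, with normalized intensities from 109 to 155 in the 6 samples (adjusted p = 0.269). miR-214 had an intensity of 529, 1732 and 1871 in IRI and 672, 436 and 740.3 in sham. It was below sham on day 1 and above it on days 3 and 5, with log2 ratios of -0.34, 1.99 and 1.34, and the mean of 0.99 ± 1.20 (SD, n = 3) did not pass (adjusted p = 0.369). So 1 of the 3 passed, against 4.52% of all tested miRs. The summed intensity of the list, which includes miR-199a-3p itself and so is no separate measure of fibroblasts, was 2221 to 4724 in IRI and 1443 to 1751 in sham.

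Among the miR-17-92 cluster and its paralogs, 10 of the 14 miRs on the array were tested, 2 were higher in IRI, against 3.52% of all tested miRs, and none lower. In 9 of the 10 the ratio was above 0 on all 3 days, which was so for 16.1% of all tested miRs. The list's median log2 ratio was 0.54, and by day 0.60, 0.35 and 0.71. The members fall mostly into a pair of seed groups, printed here to show how little the sequences differ within a group. The first has the seed AAAGUGC.
miR-20a: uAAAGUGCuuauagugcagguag
miR-17: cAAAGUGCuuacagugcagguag
miR-106a: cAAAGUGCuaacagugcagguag
miR-106b: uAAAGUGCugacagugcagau
miR-20b: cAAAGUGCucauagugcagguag
miR-93: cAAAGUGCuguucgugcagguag
All 6 miRs with this seed were tested, and all 6 had ratios above 0 on each of the 3 days, with means from 0.40 to 0.99. miR-17 and miR-106a differ by 1 base and miR-20a and miR-17 by 2, and cross-binding between their probes was not tested, so the 6 are not counted as independent.

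miR-20a, one of the miRs of the cluster on chromosome 14, at chr14:115044183-115044205 (plus strand), was the member of this group that passed. Its normalized intensity was 563, 575 and 680.0 in IRI and 319, 371 and 236 in sham. The log2 ratio was 0.82, 0.63 and 1.53, highest on day 5, where sham was lowest, and the mean of 0.99 ± 0.47 (SD, n = 3) gave a limma adjusted p of 0.0400. miR-17, from the same cluster at chr14:115043684-115043706 (plus strand), had log2 ratios of 0.58, 0.52 and 1.37, past 0.5 on every day, and missed the threshold at an adjusted p of 0.109. In all, 8 of the 199 tested miRs, 4.02%, were above 0.5 on each of the 3 days, and miR-17 was the only one of them that did not pass.

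miR-25 carries the second seed of these clusters, AUUGCAC, which it shares with 5 miRs on the array.
miR-92a: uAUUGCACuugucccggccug
miR-92b: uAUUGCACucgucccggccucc
miR-32, miR-363 and miR-367, the rest of the group, were above background in no early sample. miR-25 had normalized intensities of 1038, 907 and 1149 in IRI and 325, 516 and 657 in sham. The IRI values stayed within a narrow range while the sham value of day 1 was the lowest, and the log2 ratio was 1.67, 0.81 and 0.81, with a mean of 1.10 ± 0.50 (SD, n = 3), a 2.14-fold difference (limma adjusted p = 0.0400). It lies at chr5:138165332-138165353 (minus strand), within the span of Mcm7, a replication licensing gene that also holds miR-93 and miR-106b. Those neighbours had means of 0.42 (adjusted p = 0.269) and 0.54 (adjusted p = 0.172). miR-92a had ratios of 1.17, 0.61 and 0.06 (adjusted p = 0.192) and miR-92b of 0.92, 0.35 and 0.16 (adjusted p = 0.241). miR-19b, with a different seed, had a mean of 0.01 (adjusted p = 0.946).

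The miR-15 and miR-16 family, known for restraining cyclins and the anti-apoptotic gene Bcl2, shares the seed AGCAGCA, and its sequences are printed beside that of miR-15b, the 1 of the 6 tested members that passed, against 4.52% of all tested miRs.
miR-15b: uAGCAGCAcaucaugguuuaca
miR-15a: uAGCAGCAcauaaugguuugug
miR-16: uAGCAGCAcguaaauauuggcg
miR-195: uAGCAGCAcagaaauauuggc
miR-322: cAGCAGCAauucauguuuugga
miR-497: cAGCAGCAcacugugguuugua
miR-15b had normalized intensities of 2872, 4489 and 3185 in IRI and 1159, 1350.0 and 1448 in sham. Every IRI sample was above every sham sample, the log2 ratio was 1.31, 1.73 and 1.14, and the mean of 1.39 ± 0.31 (SD, n = 3) was a 2.63-fold difference (limma adjusted p = 0.0392).

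The locus of miR-15b, chr3:69009775-69009796 (plus strand) in the span of Smc4, also encodes miR-16, at chr3:69009918-69009939 (plus strand), and miR-16 has a second copy at chr14:61631936-61631957 (minus strand) in the long noncoding gene Dleu2 beside miR-15a. miR-16 had normalized intensities of 6469.7, 5176 and 5946 in IRI and 5929.6, 5915 and 5936 in sham, and log2 ratios of 0.13, -0.19 and 0.00. Its mean was -0.02 ± 0.16 (SD, n = 3; limma adjusted p = 0.909), and the arms overlapped. In miR-15a, which differs from miR-15b by 4 bases, the ratio was 1.24, -0.35 and 0.41 (adjusted p = 0.437). miR-195 had 0.23, -0.18 and 0.27, miR-322 0.70, -0.48 and 0.52 and miR-497 -0.02, -0.19 and -0.29. None of these 4 passed, nor did miR-16. Of the 6, miR-15b was above 0 on all 3 days, as were 16.1% of all tested miRs. The difference between miR-15b and its relatives was itself not tested.

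miR-132, induced by CREB signalling in neurons and other cells, had normalized intensities of 295, 503 and 335 in IRI and 157, 197 and 184 in sham. The arms were furthest apart on day 3, with log2 ratios of 0.91, 1.35 and 0.87 and a mean of 1.04 ± 0.27 (SD, n = 3), a 2.06-fold difference (limma adjusted p = 0.0392). It passed in 7 of the 14 alternative settings, more than any other of the 9. miR-212 has the same seed and lies within the same locus, at chr11:75173443-75173464 (plus strand) against chr11:75173723-75173744 (plus strand), and was above background in only 1 early sample.

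The lower miRs were dim. miR-763 had normalized intensities of 102, 88.1 and 82.9 in IRI and 146, 116 and 116 in sham, and miR-188-5p of 113, 80.3 and 93.4 in IRI and 174, 109.7 and 115 in sham. Each was above background in all 3 sham samples and in 1 IRI sample, and their ratios are set against IRI levels mostly at background. Neither was tested when all 6 samples had to be above background or 1 had to reach 200, and no lower call was made then. The log2 ratio of miR-763 was -0.51, -0.40 and -0.48 with a mean of -0.46 ± 0.06 (SD, n = 3; limma adjusted p = 0.0400), and that of miR-188-5p was -0.62, -0.45 and -0.30 with a mean of -0.46 ± 0.16 (SD, n = 3; limma adjusted p = 0.0400). These sizes depend on how background is treated: under plain background subtraction the means were 0.00 (limma adjusted p = 1) and 0.01 (0.688), and with a floor of 200 both were 0.00. miR-763 lies at chr10:120448052-120448073 (minus strand) in the span of Hmga2 and miR-188-5p at chrX:7248031-7248051 (minus strand) in the span of Clcn5.

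miR-805, a registered miR whose deposited sequence had no exact match among the RefSeq mature miRs, was the only tested miR below -0.5 on each day, 0.503% of those tested.
miR-805: gAAUUGAUcaggacauaggg
Its normalized intensity was 8391, 6423 and 6984 in IRI and 13531, 10689 and 11546 in sham. The arms did not overlap, and the ratios of -0.69, -0.73 and -0.73 were nearly equal over the days. The mean of -0.72 ± 0.02 (SD, n = 3) did not pass (limma adjusted p = 0.207), nor did it in any of the 14 alternatives, with 0.161 for the early arrays alone. miR-377 was above background in all 3 sham samples and in no IRI sample, so only a bound on its normalized intensity can be given. By that bound sham was at least 1.47-fold higher, taking for each IRI array the weakest signal that was above background. The measured means were 148.6 in sham and 88.9 in IRI (limma adjusted p = 0.172). It entered the test through the sham arm alone, and the part of the higher empty-spot background of the IRI samples was not tested.

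The tissue label was checked on miRs of tubule epithelium. Of the 15 miRs in the tubule list, 12 were tested, and none passed in either direction. Their summed intensity was 30821 to 44175 in IRI and 40602 to 43328 in sham. miR-204 was above background in fewer than 3 early samples and miR-211 and miR-215 in none, so the tubule label rests on the miR-192, miR-194, miR-30 and miR-200 members. Among 10 miRs of liver, muscle, neurons and pancreas, 3 were tested, miR-1, miR-206 and miR-375, with mean log2 ratios of 0.21, 0.26 and 0.20. None passed.

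The tubule ratios differed by day, although a single day has 1 array and no test. The ratio was above 0 in 9, 0 and 4 of the 12 for days 1, 3 and 5, with medians of 0.26, -0.61 and -0.07. Over all tested miRs the numbers above 0 were 100, 88 and 93 of 199. miR-192 had log2 ratios of -0.30, -0.69 and 0.17 (adjusted p = 0.493) and miR-194 of 0.15, -0.81 and -0.37 (adjusted p = 0.326). In the miR-30 family, miR-30b had 0.61, -0.12 and -0.56 and miR-30c 0.26, -0.26 and -0.98, and in the miR-200 family, whose members hold the epithelial state by repressing Zeb1 and Zeb2, miR-200b had -0.13, -0.49 and -0.09 and miR-200a -0.40, -1.50 and 0.76. None of these 4 passed. In this list the ratio furthest from 0 was that of miR-200a on day 3.

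**Figure D3:**
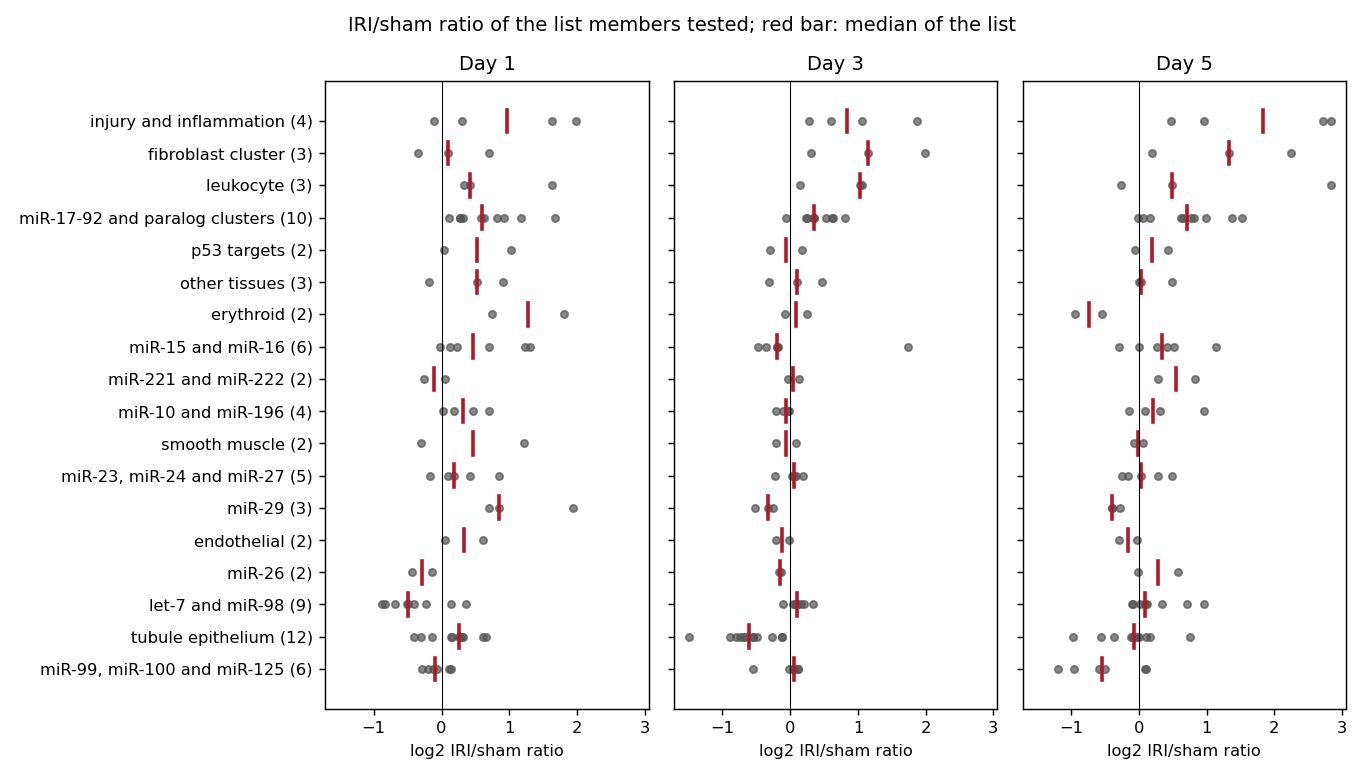
log2 IRI/sham ratio (horizontal axis) of each tested member (grey points) of the role lists, by day, with the list median as a red bar and the number tested in brackets. All 12 tubule miRs lie left of 0 on day 3, with list medians of 0.26, -0.61 and -0.07 on days 1, 3 and 5, while the median of the miR-17-92 list stays right of 0 on all 3 days.

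miR-187, a miR of kidney epithelium that the study names, turned from above to below sham after day 1. Its normalized intensity was 394, 273 and 219.6 in IRI and 252, 473 and 487 in sham, and the log2 ratio 0.65, -0.80 and -1.15, so that the mean of -0.43 ± 0.95 (SD, n = 3) did not pass (adjusted p = 0.511). Of the 9 miRs that the study names, 3 passed here, miR-21, miR-20a and miR-199a-3p, against 4.52% of all tested miRs. The study takes those 9 from its group's earlier profiling of IRI and sham kidneys, which it also cites for this time course, so they are not taken as independent evidence. It reports each of the 9 as different from sham at every time analyzed. A single day has 1 array here, so that was not tested.

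The smooth muscle, endothelial and red cell lists held no call. miR-143 and miR-145 of smooth muscle had log2 ratios of -0.30, -0.21 and 0.06 and 1.22, 0.08 and -0.07 (adjusted p = 0.620 and 0.511). miR-126-3p of endothelium had 0.61, -0.02 and -0.29 (adjusted p = 0.798), and its opposite strand miR-126-5p was above background in 3 of the 6 early samples. Among red cell miRs, miR-451 had 1.81, -0.08 and -0.54 (adjusted p = 0.621) and miR-486 0.74, 0.24 and -0.94 (adjusted p = 0.980), and miR-144 was above background in no early sample. The summed intensity of the 3 red cell miRs was 428.1 to 1209 in IRI and 497.3 to 645.8 in sham. Blood content was not tested.

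The remaining families also held no call. All 3 miR-29 members, which repress collagens and other matrix genes, were above 0 on day 1 and below 0 on days 3 and 5. miR-29a had 0.84, -0.25 and -0.39, miR-29b 0.69, -0.33 and -0.28 and miR-29c 1.93, -0.51 and -0.40 (adjusted p from 0.725 to 0.955). Their means over the 3 days were 0.03 to 0.34. Among the 9 let-7 and miR-98 members, which are tied to differentiated cells, the ratio was above 0 in 2, 8 and 7 by day, with medians of -0.49, 0.10 and 0.09. let-7a had -0.49, 0.16 and 0.09, let-7c -0.83, 0.07 and -0.09 and let-7f -0.51, 0.10 and 0.09. let-7c and let-7f each differ from let-7a by 1 base, and cross-binding between their probes was not tested.
let-7a: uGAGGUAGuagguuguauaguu
let-7c: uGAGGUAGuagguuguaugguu
let-7f: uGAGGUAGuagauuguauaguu

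Among p53 targets, miR-34a had 1.02, -0.30 and 0.43 (adjusted p = 0.493) and miR-34b-3p a mean of 0.05 (adjusted p = 0.740), and the hypoxia miR, miR-210, was above background in 1 IRI and 1 sham sample and was not tested. The Hox cluster miRs miR-10a, miR-10b and miR-196a had means of 0.08, -0.06 and 0.48 (adjusted p of 0.852, 0.877 and 0.327). Means of miR-26a and miR-26b were -0.20 and 0.10, of miR-23a, miR-23b and miR-27b 0.21, 0.00 and -0.10, of miR-221 and miR-222 0.28 and 0.05, and of miR-99b, miR-125a-5p and miR-125b-5p -0.26, -0.41 and -0.26. By day, miR-125a-5p had -0.06, 0.04 and -1.20 and miR-125b-5p 0.11, 0.06 and -0.95, both lowest on day 5. The adjusted p of each miR of the miR-10, miR-26, miR-23, miR-221 and miR-99 families named here was 0.327 or more. In all, 5 of the 19 role lists held a call.

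The 3 early days were less alike than the late days. Over the 199 tested miRs the ratios of day 1 and day 3 correlated at r = -0.10 (Pearson; Spearman rho -0.05), day 1 and day 5 at 0.44 (0.29) and day 3 and day 5 at 0.30 (0.25), whereas days 14, 21 and 30 correlated at 0.79 to 0.90. These are correlations across miRs, which are not independent replicates, and all miRs of a day share 1 array. Day 3 was most like day 7, at 0.74. The SD of the ratios over miRs was 0.84, 0.47 and 0.70 on days 1, 3 and 5. A ratio beyond 1 in size was reached by 25, 10 and 21 miRs.

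**Figure D4:**
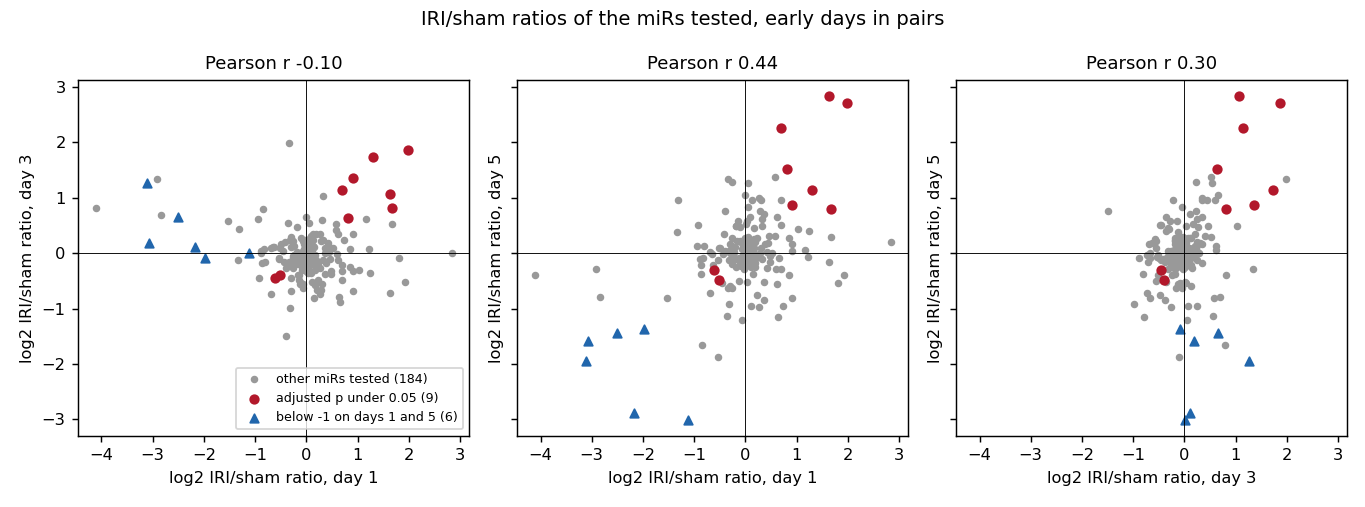
log2 IRI/sham ratios of the tested miRs on 1 early day against another, with each Pearson r. The 9 miRs past the threshold (red) keep to 1 side of 0 on every axis, while 6 miRs below -1 on days 1 and 5 (blue triangles) lie between -0.09 and 1.27 on day 3.

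The following miRs were chosen after their values were seen. On both day 1 and day 5, 6 miRs were below -1, namely miR-466f-3p, miR-466g, miR-467a*, miR-467b*, miR-689 and miR-1224, and on day 3 they lay between -0.09 and 1.27. The repeat ACACAC is in 4 of the 6. It is held by 10 of the 569 miRs on the array, 1.76%, and by 5 of the 199 tested, 2.51%, printed here with the repeat in capitals.
miR-466f-3p: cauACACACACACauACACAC
miR-466g: auacagacacaugcACACACa
miR-467a*: auauacauACACACACcuacac
miR-467b*: auauacauACACACACcaacac
miR-574-3p: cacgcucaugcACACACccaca
miR-466f-3p had normalized intensities of 172, 319 and 257 in IRI and 1485, 133 and 993 in sham, with sham above IRI on days 1 and 5. All 5 miRs with the repeat were below -1 on day 1, while 0 and 4 were so on days 3 and 5, with medians of -2.83, 0.18 and -1.95. None passed (limma adjusted p from 0.215 to 0.459). With day 3 left out, the day on which none was below -1, miR-466g and miR-467b* were called lower.

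Of the 12 tested miRs below -1 on day 1, 7 lack the repeat, and 3 of these 7, chosen after their values were seen, are printed here; the other 4 are miR-320, miR-574-5p, miR-690 and miR-705. miR-709 had log2 ratios of -4.10, 0.82 and -0.39, with an IRI intensity of 842 on day 1 against 15679.6 and 15639 on days 3 and 5. In miR-689 the ratios were -2.50, 0.66 and -1.44 and in miR-1224 -1.99, -0.09 and -1.37.
miR-709: gGAGGCAGaggcaggagga
miR-689: cGUCCCCGcucggcggggucc
miR-1224: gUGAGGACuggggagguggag
Across the 199 tested miRs, the shares of U, A, G, C and of G and C together were each set against the ratio. For days 1, 3 and 5 the Pearson r was 0.44, -0.10 and 0.28 for U, -0.31, 0.06 and -0.24 for G and C, -0.05, 0.00 and -0.33 for C, -0.23, 0.07 and 0.12 for G and -0.09, 0.03 and -0.01 for A. On the later days it lay between -0.08 and 0.14 for U, and between -0.09 and 0.11 for G and C. The later range was -0.02 to 0.13 for C, -0.21 to 0.04 for G and -0.18 to 0.05 for A. With the mean ratio of days 1, 3 and 5, r was 0.36 for U and -0.28 for G and C. It was -0.19 for C, -0.05 for G and -0.05 for A. This is a description over miRs that share an array. The part of base composition, and of RNA or labelling differences between the arrays, in the ratios of days 1 and 5 was not tested.

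In the other direction, 5 miRs were above 1 on day 1 and below 0 on day 3, namely miR-15a, miR-29c, miR-34a, miR-203 and miR-451. miR-29c had normalized intensities of 1602, 985 and 486 in IRI and 419, 1406 and 639 in sham, with IRI highest and sham lowest on day 1. The highest single ratio of day 1 was that of miR-218, at 2.84, with 0.01 and 0.20 on days 3 and 5.

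To ask whether the early ratios differ from later ones, each was compared in the same fit with days 7 and 10 and with days 14, 21 and 30, which cancels any dye bias that is equal on all arrays. Against days 7 and 10 no miR passed in limma (12 at an unadjusted p under 0.05; 0% called), which does not show that they are alike. Against days 14 to 30, 11 of the 199 passed, 5.53%, with 2 higher and 9 lower on the early days. The spots of a miR spread more in the IRI samples of days 14 and 30, with a median coefficient of variation of 16.4% and 13.5%. It was 5.36% on day 21 and 4.83% to 6.69% in the early IRI samples, and its part in this contrast was not tested. Without day 3 the counts were 3 against days 7 and 10 and 18 against days 14 to 30, and with the authors' processed values the latter was 2, miR-146b and miR-805. None of the 9 miRs called for IRI against sham was among them: for miR-21 the early minus late difference was -0.59 ± 0.43 (SE; adjusted p = 0.460), and for miR-199a-3p -1.05 ± 0.40 (adjusted p = 0.185).

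The 5 largest differences with a lower early ratio were those of miR-146b, miR-146a, miR-150, miR-342-3p and miR-181b. In the leukocyte list 1 of the 3 tested members, miR-150, was among the calls, against 5.53% of all tested miRs, and miR-155 and miR-223 were not. For miR-146b the mean log2 ratio was 0.63 early and 3.27 late, a difference of -2.65 ± 0.28 (SE; limma adjusted p = 0.00602). It was 0.21 and 2.56 for miR-146a, a difference of -2.35 ± 0.34 (adjusted p = 0.00893). miR-150, of mature lymphocytes, went from 0.10 to 1.75 (adjusted p = 0.00602), and miR-342-3p, encoded in the span of Evl, from 0.06 to 1.58 (adjusted p = 0.00602). miR-181b, a miR of developing lymphocytes among other cells, went from 0.12 to 1.20 (adjusted p = 0.00893). miR-146b passed in all 13 alternative settings and miR-146a and miR-150 in 11 of 13.

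Other miRs lower early were miR-199a-5p, from 0.20 to 0.88 (adjusted p = 0.0153), and miR-100, miR-181d and miR-676. Higher early were miR-805, at -0.72 early and -3.02 late (difference 2.31, adjusted p = 0.00893), and miR-501-3p, at 0.00 and -0.59 (difference 0.59, adjusted p = 0.0304). miR-805 was thus below sham in both periods, and further below it late. miR-501-3p was dim, with early intensities of 115.8 to 132.8, and passed in 3 of its 12 alternative settings.

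**Figure D5:**
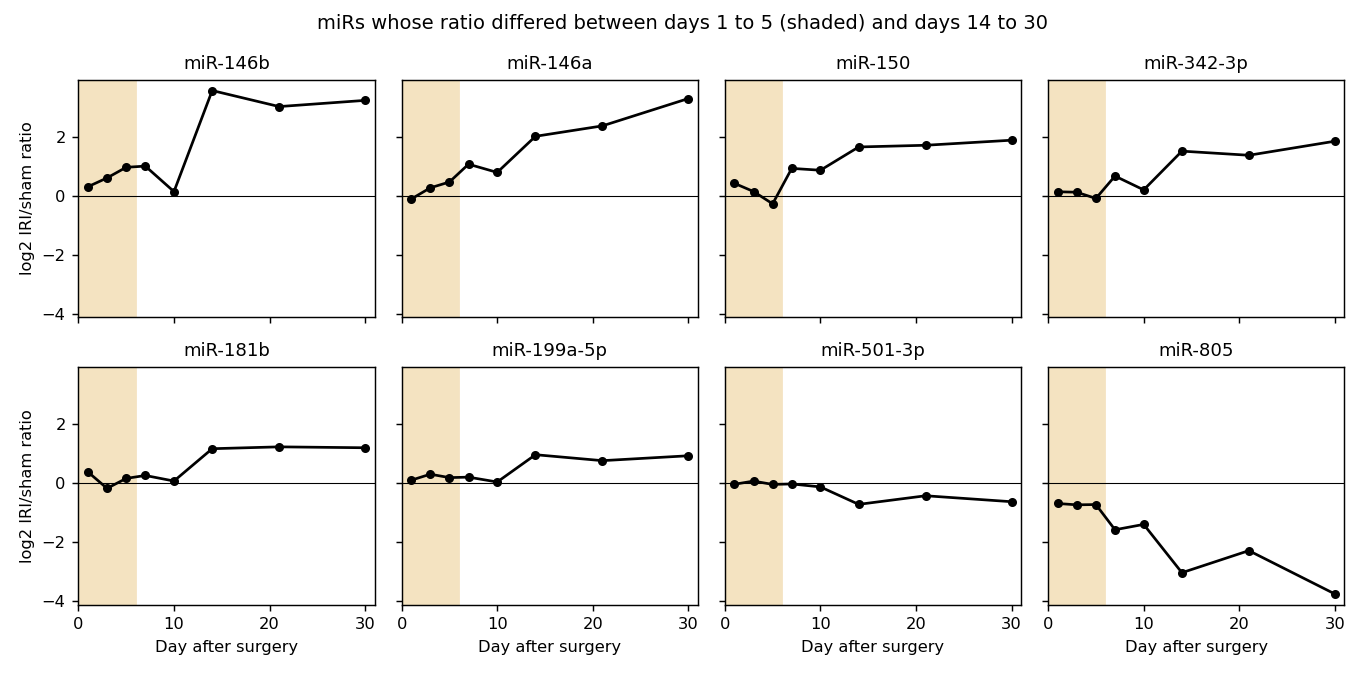
log2 IRI/sham ratio (vertical axis) on the 8 days (horizontal axis) of miRs whose early ratio, days 1 to 5 shaded, differed from that of days 14 to 30, 1 array per point. miR-146b and miR-146a lie between -0.11 and 0.97 on days 1 to 5 and between 2.02 and 3.57 on days 14 to 30, while miR-805 goes from -0.73 to -0.69 early to between -3.75 and -2.29 late.

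The naïve sample was labelled with Cy3, as IRI was, but hybridised alone and measured once, so IRI over naïve is a description without a test. Its mean miR signal less background was 208.7 before normalization, against 1114 to 1412 in the early IRI samples. Quantile normalization brought it to the scale of the others, and the part of this weak signal in the differences was not tested. The mean log2 difference from naïve over days 1, 3 and 5 was 3.64 for miR-21, 3.17 for miR-15b, 3.03 for miR-155, 2.43 for miR-20a, 1.05 for miR-132, 0.69 for miR-199a-3p and 0.41 for miR-25. All 7 higher miRs were therefore above naïve too, as were 122 of the 199 tested miRs, 61.3%, whose median was 0.20 and whose middle range was -0.32 to 0.77. miR-188-5p was below naïve, at -1.10, and miR-763 above it, at 0.20.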

How the data were processed

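For each of 9 arrays the authors deposited mean spot intensity without background subtraction, and for the series a table of 1 processed linear intensity for each miR in each sample. The sources used here do not say how that table was made. Per the labels, total RNA was size-fractionated, tailed and tagged before dye staining. The day 5 file names its channels without an arm. Its Cy3 channel correlated at 0.998 with the table's IRI column and at 0.941 with the sham column.

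Background was corrected with normexp (offset 50) on all spots, the 6 spots of a miR were averaged, and channels were matched by loess over the miRs of an array in limma 3.58.1 (R 4.3.3). Levels come from quantile normalization of the mean log2 intensity of all arrays. Here limma was fitted to the log2 IRI/sham ratios of 8 arrays with a mean for each of 3 periods, which leaves 5 residual degrees of freedom; an exact sign-flip test of 3 days alone could reach no two-sided p below 0.25. Calls used Benjamini-Hochberg adjusted p under 0.05. The scripts were tested on simulated data with known changes.

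IRI and sham of a day are paired by array and day in the labels. The deviations of the paired samples from their arm means correlated at -0.04, -0.14 and 0.29. Between IRI and sham samples of different days the correlations ran from -0.45 to 0.39, so the paired ones did not stand out. The members, lists and alternatives were chosen with earlier results of these data known. The miRs named are up to 10 called in each direction with 1 sign on all days, those the study names, up to 5 in each direction in each contrast with later days, the 3 brightest of each list, and those past 0.5 on all days without a call; other miRs are named as relatives of these or were chosen after their values were seen. Alternatives were the authors' values, other background corrections, normalizations, filters, variance models, a floor, no block, and each day left out.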

Additional observations from a re-analysis of the deposited data

Results flagged for a closer look

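The IRI/sham ratio of days 1 to 5 differed from that of days 14 to 30 in 11 miRs by the contrast of both periods in limma (adjusted p under 0.05). The 8 named by the rule for named miRs are given here, without miR-100, miR-181d and miR-676, and the values are differences of mean log2 ratios, early minus late. The ratio was lower early in miR-146b (-2.65), miR-146a (-2.35), miR-150 (-1.65), miR-342-3p (-1.52), miR-181b (-1.08) and miR-199a-5p (-0.69). It was higher early in miR-805 (2.31) and miR-501-3p (0.59). On each of days 14, 21 and 30 the first 6 were further above sham, and miR-805 and miR-501-3p further below it, than on any of days 1, 3 and 5. No miR differed in this way between days 1 to 5 and days 7 and 10.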

How the results depend on the processing

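The direction of the 7 miRs higher in IRI was the same in all 14 alternatives, though changes of filter, fit or days used could not turn it. Their calls were not the same. The 9 calls for IRI against sham became 1 (miR-132) under plain background subtraction and under median centring, and 0 with no filter, with the early arrays alone, with an intensity trend and robust variance, and with a floor of 200 (limma; 110, 17, 37 and 15 miRs at an unadjusted p under 0.05). Leaving out 1 day gave 0 to 8 calls, 0 without day 1 or day 5 and 8 without day 3, of which 3 were higher and 5 lower, the latter miR-466g, miR-467b*, miR-689, miR-762 and miR-1224. miR-188-5p reversed under plain background subtraction, to 0.0116. Against days 14 to 30 the 11 calls became 2 with the authors' values, 7 in miRs above background in all 6 early samples, 6 in miRs reaching 200, and 2 with the floor, and 12 to 18 with 1 early day left out. Against days 7 and 10 the count was 0 in every alternative but the one without day 3, so leaving out 1 day gave 0 to 3. The 5 role lists with a call became 3 with the authors' values, 0 under plain subtraction and under median centring, and 0 to 3 with 1 day left out. The causes were not tested.

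Without the replicate block, the pairing of IRI and sham by array, there were 8 calls for IRI against sham, all higher, of which 7 were among the 9, and 7 calls against days 14 to 30. Thresholds of 2 and 5 median absolute deviations kept the number of detected miRs within 1.5 times. Signal over background limited the 2 lower miRs, each above background in 1 of 3 IRI samples.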

Other observations

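The arrays carried 5 control probes for 5S ribosomal RNA, which entered no comparison. Their mean log2 Cy3/Cy5 ratio, less the median of the tested miRs on the same array, was -1.07, -0.42 and 0.11 on days 1, 3 and 5, and between -2.02 and -0.16 on the later days. In the deposited table the median value over miRs was 18 or 19 in each of the 6 early samples.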
